A study of Mus musculus with 26 samples.

Results

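Small nucleolar RNAs (snoRNAs) are short non-coding RNAs of the nucleolus, the part of the nucleus where ribosomes are made. Box C/D snoRNAs (Snord genes) guide the methylation of ribose in ribosomal RNA, and box H/ACA snoRNAs (Snora genes) guide the conversion of uridine to pseudouridine. Most are not transcribed alone: they lie in introns of a host gene and are released from the spliced intron, and many hosts encode ribosomal proteins or are non-coding RNAs whose introns carry the functional product. Genes were counted as snoRNA genes where the annotated symbol of a probe cluster was Snora or Snord followed by a digit and the cluster carried no other symbol. This rule used no measured value. It gave 51 of the 19938 named genes on Mouse Gene 1.0 ST arrays, of which 31 were box C/D and 20 were box H/ACA, and 73 of 22180 on Mouse Gene 2.0 ST arrays (47 box C/D and 26 box H/ACA). The arrays had 40 of these genes in common. The 1.0 table has 41 further snoRNA clusters with several symbols, which were left out, as they cannot be assigned to 1 gene.

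The study deleted tumor suppressor genes with a Cre driven by the promoter of the milk protein gene WAP, which led to pineoblastoma (PB), a tumor of the pineal gland. Of the 26 arrays, the 1.0 set carried 11 Rb/p53-deleted PBs (WAP-Cre mice with Rb flox/flox and p53 flox/flox, PB1 to PB11), 5 Rb/p53-mutated PBs (WAP-Cre mice with Rb flox/flox, 1 floxed p53 allele and 1 allele that Cre turns on to make a stabilised mutant p53) and 3 samples of normal cerebellum, whose genotype the labels do not give. The 2.0 set carried 1 further Rb/p53-deleted PB (PB12), 3 Dicer1/p53-deleted PBs (Dicer1 flox/flox and p53 flox/flox) and 3 Rb/Dicer1/p53-deleted PBs (the same alleles with Rb flox/flox added). Thus all tumors shared WAP-Cre and an altered p53 gene, all but the Dicer1/p53-deleted tumors carried floxed Rb, and the mice were of mixed background. The labels give no ages. They also do not say whether arrays of a group came from separate mice, so p-values measure the spread between these samples. All values are log2, differences are log2 differences, and a gene is called higher or lower at an adjusted p below 0.01 against cerebellum and below 0.05 between tumors (limma, adjusted over all named genes).

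Most pinealocyte markers bore out the tissue labels. On the 1.0 arrays the mean level of 5 measured markers lay between 10.86 and 11.19 in Rb/p53-deleted PBs, between 10.66 and 11.12 in Rb/p53-mutated PBs and between 7.35 and 7.64 in cerebellum. The mean of 5 markers of cerebellar granule neurons was at 12.97 to 13.02 in cerebellum and at or below 9.87 in every tumor. In deleted and in mutated tumors, 4 of the 5 pinealocyte markers were called higher than cerebellum, where 25% and 23.8% of all genes were. Likewise 4 of the 5 granule neuron markers were called lower, where 27.7% and 27.5% of all genes were. The remaining granule neuron marker was 0.12 and 0.34 above cerebellum, which was not called. In bulk tissue, fewer cells of a type and less RNA per cell cannot be told apart. The Rb1 probes average over all exons and were at 9.64 to 10.61 and 9.90 to 10.41 in the deleted and mutated tumors, so they do not show the deletion. As deposited, Rb/p53-mutated arrays had medians of 7.04 to 7.12 against 7.90 to 8.01 for the other arrays. PB11 and the cerebellum arrays shared a wider distribution (interquartile range 3.17 to 3.25) than PB1 to PB10 (2.57 to 2.87). Values of the 1.0 arrays were therefore quantile-normalized, and a difference that involves the Rb/p53-mutated group cannot be told apart from a difference between sets of arrays.

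Of the 51 snoRNA genes, 50 lay within a host gene in the annotation, with 40 different hosts. Ribosomal protein genes hosted 21 of them, other protein-coding genes 17 and non-coding host genes 12. The exception was Snord118, which encodes the U8 RNA needed for maturation of the large-subunit ribosomal RNA and is transcribed from a promoter of its own. Many snoRNA hosts are known to belong to the class of transcripts that begin with a C followed by further pyrimidines, a feature through which growth signals set the translation of the host message. The start regions of 6 hosts to which the results below return are shown from the RefSeq promoter table (GRCm38.p6), from 40 bases before to 30 bases from the annotated start, in the direction of transcription. Capitals mark a run of at least 6 C or T bases that opens with C within 10 bases of that start.
Rps12, host of Snora33, minus strand, chr10:23787180-23787249: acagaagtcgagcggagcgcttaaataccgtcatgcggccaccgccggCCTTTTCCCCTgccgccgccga
Rpl13a, host of Snord33 and Snord35a, minus strand, chr7:45128716-45128785: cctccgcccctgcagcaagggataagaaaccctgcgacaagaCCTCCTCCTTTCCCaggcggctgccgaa
Snhg12, host of Snora16a and Snora44, plus strand, chr4:132308638-132308707: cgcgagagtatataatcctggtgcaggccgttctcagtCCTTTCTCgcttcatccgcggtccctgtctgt
2410006H16Rik, host of Snord49a and Snord49b, plus strand, chr11:62602837-62602906: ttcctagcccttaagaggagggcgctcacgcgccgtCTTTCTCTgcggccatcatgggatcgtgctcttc
Gas5, host of Snord47, downstream start, plus strand, chr1:161035126-161035195: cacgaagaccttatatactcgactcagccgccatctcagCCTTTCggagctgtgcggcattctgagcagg
Ncl, host of Snora75 and Snord82, minus strand, no such run, chr1:86359426-86359495: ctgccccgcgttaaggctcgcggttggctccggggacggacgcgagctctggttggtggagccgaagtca

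Of 61 hosts of snoRNA genes in either table, 49 were in the promoter table, and 20 of these (40.8%) had such a run, against 21.9% of 27025 genes. By kind of host it was present in 5 of 12 ribosomal protein genes, 8 of 10 non-coding host genes and 7 of 27 other protein-coding genes. Rps12, Rpl13a, Snhg12 and 2410006H16Rik carried it, while Rps3, another ribosomal protein host, and Ncl, which encodes the nucleolar protein nucleolin, did not. The score depends on where the annotation puts the start. Rpl4, scored as without a run, has a stretch of C and T that opens more than 10 bases before its annotated start. Absence of the run here therefore does not show that a transcript lacks it. This is a description of the sequences, read on the given strand only. A probe set in a snoRNA gene also matches the unspliced intron of its host, so mature snoRNA and unspliced host transcript cannot be told apart on these arrays.

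Rb/p53-deleted PBs were compared with normal cerebellum first. SnoRNA genes were mostly higher in the tumors: 29 of 51 (56.9%) were called higher, where 25% of all named genes were, and 3 (5.88%) were called lower, where 27.7% of all genes were. The median difference over the 51 genes was 0.49, against 0.0065 over all genes. Both classes took part, with 16 of 31 box C/D genes and 13 of 20 box H/ACA genes higher. The groups did not overlap for 27 snoRNA genes: 24 were higher in the tumors, where 22.8% of all genes were higher without overlap, and 3 were lower, where 25.5% were. In a fit with array set as a block, PB11 and the cerebellum arrays were 1 set and PB1 to PB10 the other. These sets were inferred from the distribution of the values and are named by no label. That difference compares 1 tumor array with 3 cerebellum arrays, and its p-values take most of the spread from PB1 to PB10, so PB11 is assumed to vary like them. Its median over the snoRNA genes was 0.67. Fewer genes were called than without the block, among snoRNA genes and among all genes. PB11 lay above all 3 cerebellum arrays for 43 of the 51 genes (84.3%, against 37.9% of all genes) and below them for 4 (7.84%, against 47.1%).

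**Figure D1:**
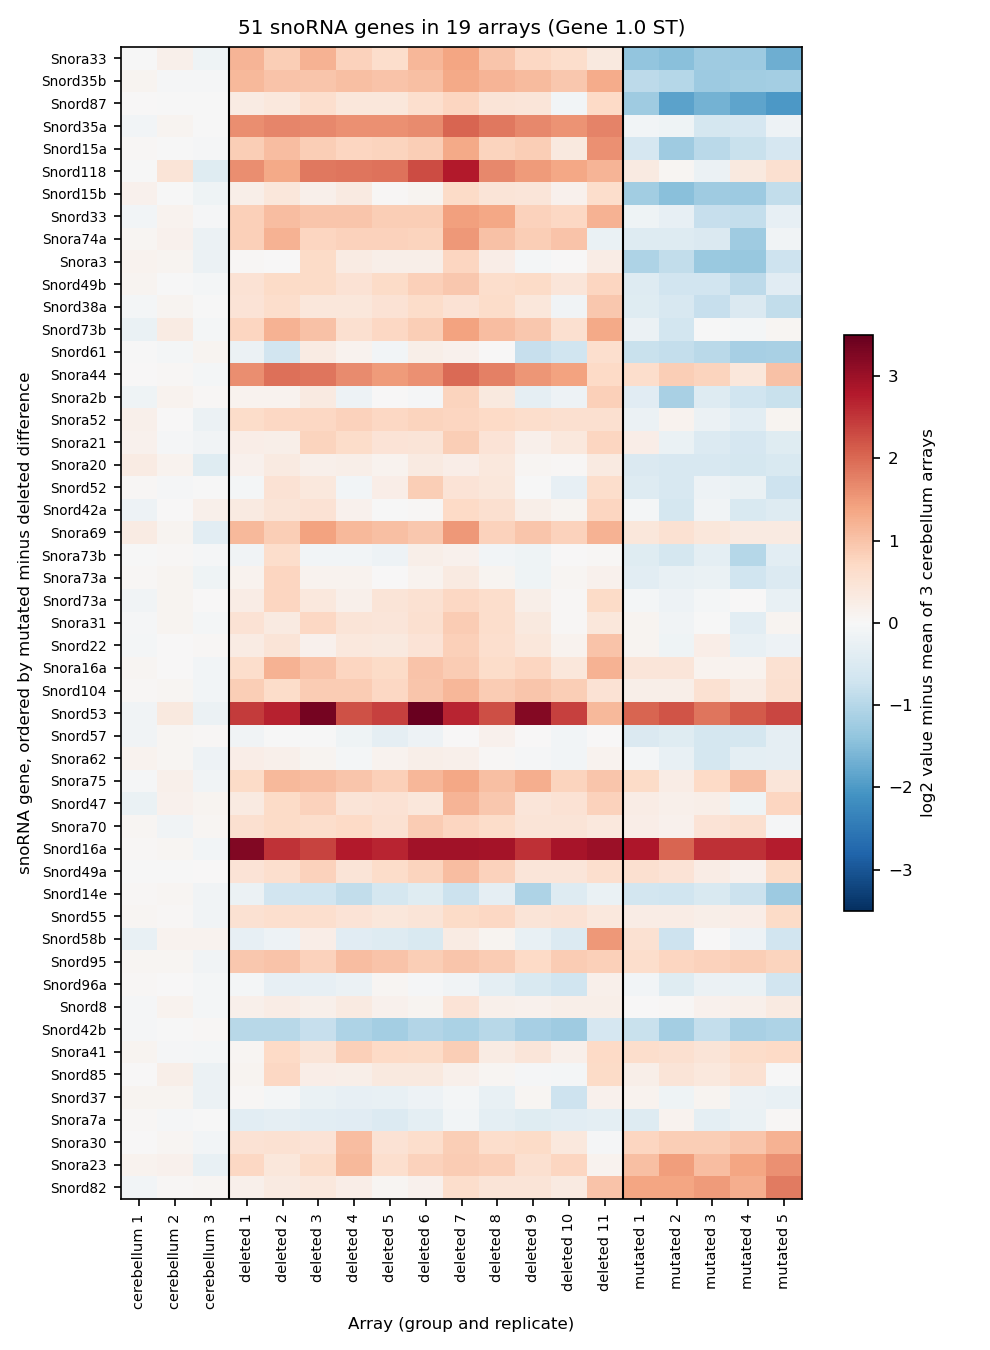
Level of each of the 51 snoRNA genes on the 19 arrays of the 1.0 set, as the log2 difference from the gene's mean over the 3 cerebellum arrays (colour scale, limited at 3.5 in either direction). Rb/p53-deleted PBs are mostly above cerebellum, with a median difference of 0.49, and Rb/p53-mutated PBs lie on either side, with a median of -0.17.

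The largest difference was that of Snord16a, the U16 RNA from an intron of the ribosomal protein gene Rpl4. It was at 8.46, 8.49 and 8.33 in cerebellum and ranged from 10.78 to 11.67, with a median of 11.33, in Rb/p53-deleted PBs. All 11 tumors were far above all cerebellum arrays, with a difference of 2.80 (SE 0.14, limma adjusted p = 3.76e-11). Snord53, hosted by the ribosome biogenesis gene Wdr43, was at 7.94, 8.42 and 7.86 in cerebellum and at 9.22 to 11.52 (median 10.52) in the tumors. The groups did not overlap, and the lowest tumor was PB11, apart from the range of 10.29 to 11.52 in PB1 to PB10. The difference was 2.57 (SE 0.35, limma adjusted p = 7.05e-06). In PB11 alone it was 1.14, which was not called (limma adjusted p = 0.0540 with array set as a block).

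Snord118 was also among the genes that rose. Its level was 8.58, 9.06 and 8.17 in cerebellum and 9.80 to 11.39 (median 10.30) in Rb/p53-deleted PBs. Every tumor was above every cerebellum array, and PB7 was the highest. The difference was 1.76 (SE 0.27, limma adjusted p = 2.46e-05) and 1.19 with array set as a block (adjusted p = 0.0490, not called). Snora44, 1 of the 2 members in Snhg12, was at 7.85, 7.87 and 7.77 in cerebellum and at 8.52 to 9.82 (median 9.47) in the tumors. PB11 was again the lowest tumor, below the 9.25 to 9.82 of PB1 to PB10, and still above cerebellum. The difference was 1.60 (SE 0.19, limma adjusted p = 1.81e-06). With array set as a block it was 0.69 (adjusted p = 0.0105, not called).

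The snoRNAs of Rpl13a are known from mammalian cells to act in the response to lipid overload and oxidative stress. Snord35a was at 9.74, 9.93 and 9.80 in cerebellum and at 11.38 to 11.85 (median 11.49) in Rb/p53-deleted PBs. The tumors formed a narrow band above cerebellum, with a difference of 1.71 (SE 0.09, limma adjusted p = 3.78e-11). Its neighbour Snord33 differed by 1.01 (SE 0.13, adjusted p = 5.52e-06). Snord35b, a further box C/D gene, was at 9.24, 9.10 and 9.09 in cerebellum and at 10.08 to 10.46 (median 10.20) in the tumors. Again no tumor reached down to the cerebellum arrays, and the difference was 1.09 (SE 0.08, limma adjusted p = 8.91e-09). Snord47, the 1 measured snoRNA of Gas5, differed by 0.63 (SE 0.16, adjusted p = 0.0024). That call was lost without cerebellum array 1 (0.51, adjusted p = 0.0282) and on the deposited scale (0.44, limma adjusted p = 0.0435). With array set as a block, the difference was 0.82 and not called.

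Smaller differences among the higher genes included Snora33 (0.90, SE 0.18) from Rps12 and Snord15a (0.92, SE 0.18) from Rps3, with limma adjusted p of 0.000327 and 0.000251. Snora33 in PB11 was 0.33 above cerebellum, which was not called (adjusted p = 0.357 with array set as a block). The higher calls of Snord87 (0.44), Snord38a (0.49) and Snora30 (0.56) were each lost when any 1 cerebellum array was left out, with limma adjusted p of 0.0129 to 0.0399, and that of Snora23 (0.68) was lost without cerebellum array 3 (0.55, adjusted p = 0.0168) and with array set as a block (0.11, adjusted p = 0.729), where PB11, at 10.51, lay within the cerebellum range of 10.14 to 10.55. Snord87 was also lost without PB3 or PB6, and Snord38a without PB2, PB5, PB6, PB7 or PB8, at adjusted p of 0.0101 to 0.0115. Snora30 reached 8.24, 8.29 and 8.11 in cerebellum and 8.17 in PB11, so its groups overlapped. On the deposited scale, the higher calls of Snora23 and Snora30 were lost (0.26 and 0.42, limma adjusted p of 0.0749 and 0.0155).

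The 3 genes that fell were Snord42b, Snord14e and Snora7a. Snord42b, in the ribosomal protein gene Rpl23a, was at 9.66, 9.69 and 9.74 in cerebellum and at 8.46 to 9.11 (median 8.66) in Rb/p53-deleted PBs. No tumor reached the cerebellum level, and PB11 came nearest. The difference was -1.01 (SE 0.11, limma adjusted p = 4.1e-07), and it was the 1 gene still called lower with array set as a block. Snord14e, a copy of the U14 RNA used in small-subunit ribosomal RNA processing and hosted by the heat shock gene Hspa8, differed by -0.57 (SE 0.15, adjusted p = 0.0035). That call was lost without cerebellum array 1 (adjusted p = 0.0203) or 2 (adjusted p = 0.0212). Snora7a, in Rpl32, differed by -0.35 (SE 0.07, adjusted p = 0.000324).

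Across the 11 Rb/p53-deleted arrays, snoRNA genes spread more than the average gene, with a median SD of 0.24 against 0.17 over all named genes. Snord53 (SD 0.64), Snord58b (0.59) and Snord118 (0.46) varied most, and Snora52 (0.083), Snora7a (0.092) and Snord8 (0.10) varied least. Single arrays stood at the ends: PB7 was the highest of the 11 for 22 of the 51 genes (43.1%, against 5.81% of all genes), PB10 the lowest for 20 (39.2%, against 7.14%), and PB11 the highest for 12 and the lowest for 11 (23.5% and 21.6%, against 22.9% and 25.3%), with ties counted for each array that shared them. Snora74a, hosted by Snhg4, was at 8.63 in PB11, 9.63 to 10.39 in PB1 to PB10 and 8.66 to 9.01 in cerebellum. Snord58b, from Rpl17, was at 6.82 in PB11 and at 4.77 to 5.58 in the other tumors of the group. The mean level of the 51 genes on an array was between 8.86 and 9.36 in Rb/p53-deleted PBs, 8.44 and 8.59 in cerebellum and 8.36 and 8.53 in Rb/p53-mutated PBs.

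**Figure D2:**
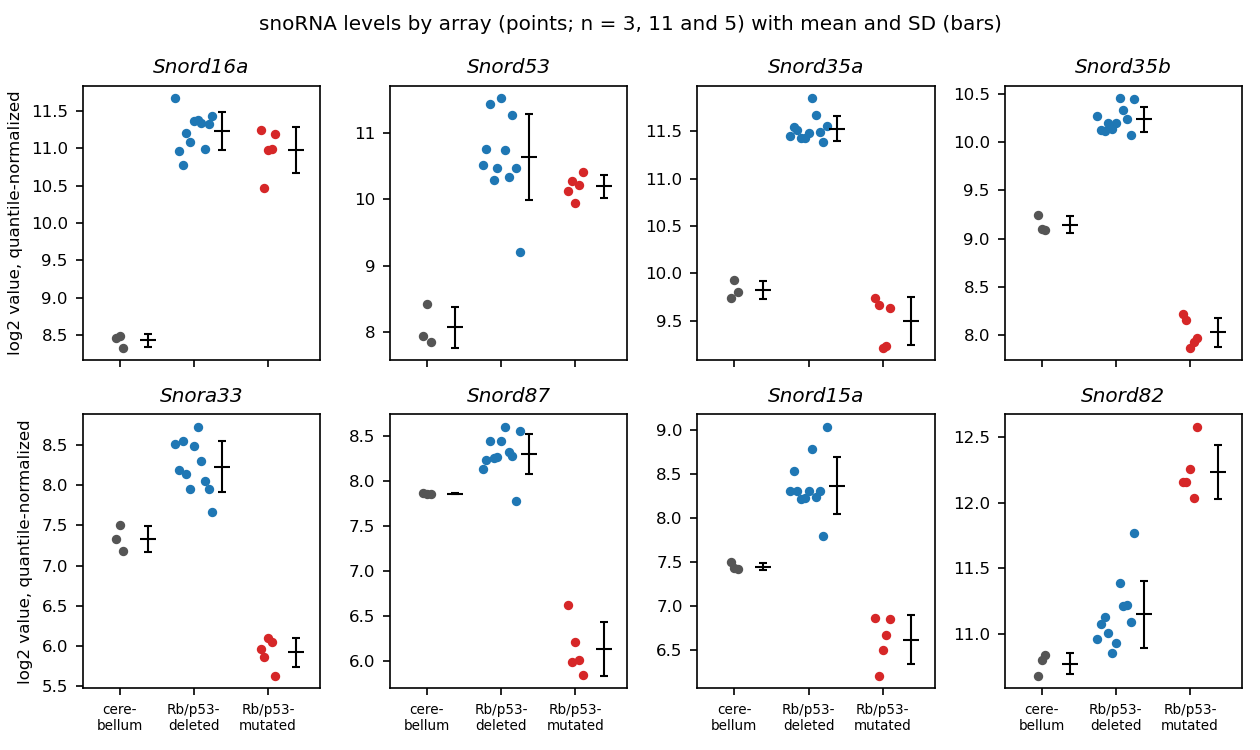
Levels (log2, quantile-normalized) of selected snoRNA genes on each array of the 1.0 set, with 1 point per array and, beside each group, its mean and SD (bars; 3 cerebellum, 11 deleted and 5 mutated arrays). Snord16a and Snord53 are high in both tumor groups, Snora33, Snord35b and Snord87 are lowest in the 5 Rb/p53-mutated PBs, and Snord82 is highest there.

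The same normal samples were then set against Rb/p53-mutated PBs. Here 8 snoRNA genes (15.7%) were called higher, where 23.8% of all genes were, and 15 (29.4%) were called lower, where 27.5% of all genes were. The median difference was -0.17, against -0.021 over all genes. The sign of this median followed the scaling, since it was 0.06 with arrays centred on their medians and -1.05 as deposited. Relative to the median of all genes on the same scale it was -0.13 to -0.15 in the 3 scalings.

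Some genes were high in both tumor types. Snord16a was at 11.25, 10.47, 10.98, 10.99 and 11.19 in the 5 Rb/p53-mutated PBs, a difference from cerebellum of 2.55 (SE 0.16, limma adjusted p = 8.84e-07). Snord53 was at 10.12, 10.28, 9.95, 10.22 and 10.42 in the same tumors, a difference of 2.13 (SE 0.15, adjusted p = 1.51e-06). All 5 tumors were above all cerebellum arrays for both genes. Snord95 (0.76, SE 0.09) and Snora30 (0.93, SE 0.11) were also called higher on this scale, but were at -0.24 and -0.093 on the deposited scale.

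Others were lower than in cerebellum. Snord87, from the non-coding host Snhg6, was at 7.86, 7.86 and 7.85 in cerebellum and at 6.62, 5.98, 6.21, 6.01 and 5.85 in Rb/p53-mutated PBs. Every tumor was more than 1 unit below every cerebellum array, with a difference of -1.72 (SE 0.16, limma adjusted p = 1.06e-05). Snora33 differed by -1.42 (SE 0.12, adjusted p = 7.13e-06), Snord15b by -1.21 (SE 0.13, adjusted p = 3.72e-05) and Snord35b by -1.12 (SE 0.10, adjusted p = 9.39e-06). Snora3, from Rpl27a, differed by -1.05 and Snord42b by -1.01. For Snord35a (-0.33, adjusted p = 0.0662), Snord33 (-0.47, adjusted p = 0.0336) and Snord47 (0.25, adjusted p = 0.26), the snoRNAs of Rpl13a and Gas5, the difference did not pass the threshold. On the deposited scale all 3 were called lower, by -1.55 (adjusted p = 2.71e-06), -1.69 (adjusted p = 4.98e-06) and -0.82 (adjusted p = 0.00124).

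The tumor types were then compared with each other. Of the 51 snoRNA genes, 35 (68.6%) were lower in Rb/p53-mutated than in Rb/p53-deleted PBs, where 25.9% of all genes were, and 3 (5.88%) were higher, where 20.7% of all genes were. The median difference was -0.53, against -0.036 over all genes. Box H/ACA genes were lower in 16 of 20 cases and box C/D genes in 19 of 31. The groups did not overlap for 22 snoRNA genes: 21 were lower in the mutated tumors, where 8.36% of all genes were lower without overlap, and 1 was higher, where 7.29% were. Without PB11, 35 were lower and 3 higher. Relative to all genes, the median was -0.50 to -0.51 under each of the 3 scalings, while on the deposited scale all genes were shifted by -0.86.

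Snora33 showed the largest difference. It was at 5.96, 5.86, 6.09, 6.05 and 5.63 in Rb/p53-mutated PBs, at 7.67 to 8.73 (median 8.19) in Rb/p53-deleted PBs and at 7.32, 7.50 and 7.18 in cerebellum. The mutated tumors were below both other groups, with a difference between the tumor types of -2.31 (SE 0.14, limma adjusted p = 7e-09). Snord35b was at 8.22, 8.15, 7.87, 7.92 and 7.96 in the mutated tumors, again below both other groups. It differed between the tumor types by -2.22 (SE 0.08, adjusted p = 5.66e-12). Snord87 differed by -2.16 (SE 0.13, adjusted p = 3.57e-09), with the Rb/p53-deleted PBs at 7.77 to 8.6 (median 8.28).

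Snord35a was at 9.73, 9.66, 9.22, 9.23 and 9.63 in Rb/p53-mutated PBs, just under the cerebellum arrays and far under the Rb/p53-deleted PBs. It differed by -2.03 (SE 0.09, limma adjusted p = 3.22e-10). Snord15a, the U15 RNA of Rps3, was at 6.87, 6.21, 6.5, 6.68 and 6.85 in mutated tumors, at 7.79 to 9.04 (median 8.30) in deleted tumors and at 7.50, 7.43 and 7.42 in cerebellum. The 3 groups were apart, with cerebellum in the middle, and the tumor types differed by -1.75 (SE 0.16, adjusted p = 2.7e-07). Snord118 was at 8.92, 8.69, 8.39, 8.94 and 9.18 in mutated tumors. These values overlapped cerebellum but not the deleted tumors, from which they differed by -1.54 (SE 0.21, adjusted p = 1.69e-05).

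Higher in the mutated tumors were Snord82, Snora23 and Snora30. Snord82, the U82 RNA of Ncl, was at 12.16, 12.16, 12.26, 12.04 and 12.58 in Rb/p53-mutated PBs, at 10.86 to 11.77 (median 11.09) in Rb/p53-deleted PBs and at 10.68, 10.80 and 10.84 in cerebellum. It was the 1 snoRNA gene with all 5 mutated tumors above every other array, as were 5.26% of all genes, and differed by 1.09 (SE 0.12, limma adjusted p = 3.23e-06). This position, seen on the quantile-normalized scale, did not hold on the deposited scale. As deposited, Snord82 was at 12.34 in PB11, above its 11.74, 11.65, 11.82, 11.51 and 12.15 in the mutated tumors. Against cerebellum, its difference in Rb/p53-deleted PBs was 0.38 (adjusted p = 0.0293, not called), 0.32 without PB11 (adjusted p = 0.00851, called) and 0.997 with array set as a block (adjusted p = 0.00019, called). Snora23, hosted by the importin gene Ipo7, differed between tumor types by 0.63 (SE 0.13, adjusted p = 0.00091). Snora30, hosted by the chromatin remodeller gene Srcap, differed by 0.37 (SE 0.13, adjusted p = 0.0255), and its call was lost without mutated PB4 (adjusted p = 0.0501) or PB5 (adjusted p = 0.0890). The last 2 had overlapping groups and were at -0.040 and -0.51 on the deposited scale. A further cluster for Snora30 had the same group means, so the values cannot be tied to the Snora30 gene within Srcap. Snord118 also had a further cluster with the same means.

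Set side by side, the 3 comparisons, which share arrays, sorted the genes into a few patterns. The share of all genes with each pattern was not counted, so these counts describe the 51 genes only. Being higher in Rb/p53-deleted PBs than in cerebellum, not called between Rb/p53-mutated PBs and cerebellum, and lower in mutated than in deleted tumors was the most frequent, with 15 genes, among them Snord118, Snord33, Snord35a and Snord47. A further 6 genes (Snora33, Snord15a, Snord35b, Snord38a, Snord49b and Snord87) were called higher than cerebellum in deleted tumors and lower than cerebellum in mutated tumors. The lower call of Snord38a was lost with arrays centred on their medians (-0.087, adjusted p = 0.466). The higher calls of Snord49b and Snord87 were lost on the deposited scale (0.26 and 0.39, limma adjusted p of 0.0797 and 0.0227). Snora41, Snord16a, Snord53 and Snord95 were higher than cerebellum in both and not called between the tumor types. Snord14e and Snord42b were lower in both. The mutated arrays lay below all deleted and all cerebellum arrays for 15 genes (29.4%, against 5.71% of all genes).

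Several snoRNA genes share a host, and they did not always have similar values. These pairs were chosen after their values were seen, and the difference between 2 members of a pair was not tested. Snord82 and Snora75 both lie in Ncl. Snora75 was at 8.08, 7.65, 8.10, 8.48 and 7.81 in mutated tumors and at 8.07 to 8.76 (median 8.45) in deleted tumors, so these groups overlapped. It was lower in the mutated tumors by -0.40 (SE 0.13, limma adjusted p = 0.0146), a call lost without mutated PB2 (-0.31, adjusted p = 0.0601). Snord82 was higher by 1.09, and the Ncl message was lower by -0.51 (SE 0.09, adjusted p = 0.00034).

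Snord49a and Snord49b of 2410006H16Rik differed by -0.22 (SE 0.11, limma adjusted p = 0.112) and -1.28 (SE 0.09, adjusted p = 2.28e-08). Snord49b was at 10.95, 10.73, 10.72, 10.5 and 11 in mutated tumors, below its 11.82 to 12.35 in deleted tumors and its 11.49, 11.40 and 11.33 in cerebellum. Snord42a and Snord42b of Rpl23a gave -0.70 (SE 0.13, adjusted p = 0.000412) and 0.0043 (SE 0.10, adjusted p = 0.975). Members of other hosts went the same way: Snord15a and Snord15b of Rps3 by -1.75 and -1.53, Snord35a and Snord33 of Rpl13a by -2.03 and -1.48, and Snora44 and Snora16a of Snhg12 by -0.86 and -0.50. Snord47 of Gas5 was lower by -0.39 (SE 0.15, adjusted p = 0.0374), a call lost when any 1 of 7 of the 16 arrays was left out (mutated PB1 to PB4, deleted PB3, PB8 and PB11) or the arrays were centred on their medians (adjusted p = 0.0730).

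**Figure D3:**
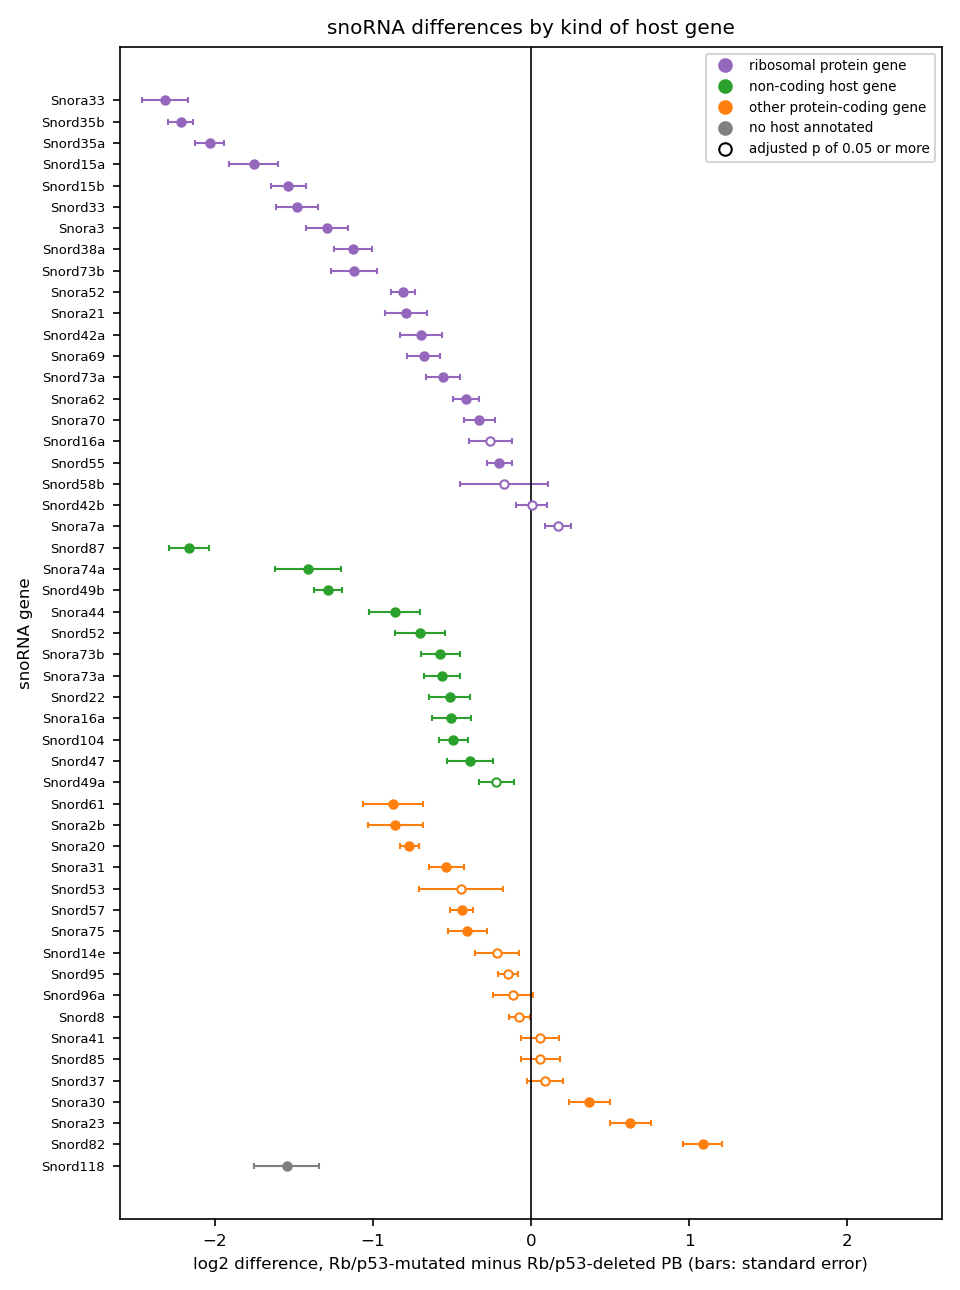
Difference (log2) for each of the 51 snoRNA genes, Rb/p53-mutated minus Rb/p53-deleted PBs, coloured by kind of host gene, with bars for the standard error and open points where the adjusted p was 0.05 or more. Medians are -0.79 for the 21 genes in ribosomal protein hosts, -0.57 for the 12 in non-coding hosts and -0.15 for the 17 in other protein-coding hosts.

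Between the tumor types, 25.9% of all genes were lower and 20.7% were higher. Grouped by host, 17 of the 21 snoRNA genes in ribosomal protein hosts and 11 of the 12 in non-coding hosts were lower in Rb/p53-mutated than in Rb/p53-deleted PBs, and none was higher. Of the 17 in other protein-coding hosts, 6 were lower and 3 were higher, which was not far from those shares. The medians were -0.79, -0.57 and -0.15. Against cerebellum, Rb/p53-deleted PBs had 13 of 21, 8 of 12 and 7 of 17 higher, with medians of 0.52, 0.64 and 0.25. In that comparison 25% of all genes were higher.

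The level of the host itself was measured for 28 snoRNA genes, with 24 hosts. Of these genes, 13 were in ribosomal protein hosts, 14 in other protein-coding hosts and only 1, Snord47, in a non-coding host. The host values below thus say little about non-coding hosts. Between the tumor types 11 of the 24 hosts were lower and none was higher, where 25.9% and 20.7% of all genes were. SnoRNA and host were both lower in 10 of the 28 pairs, and in 8 the snoRNA was lower while the host was not called. Rps12, host of Snora33, was lower by -0.73 (SE 0.11, limma adjusted p = 4.93e-05), where Snora33 was lower by -2.31. Rps3, host of Snord15a and Snord15b, was lower by -0.46 (SE 0.07, adjusted p = 7.2e-05). Across the 28 pairs, the correlation of the snoRNA difference with the host difference was r = 0.38 and rho = 0.32; these pairs share all arrays and some share a host.

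Against cerebellum, 20 of the 24 hosts were higher and 1 was lower in Rb/p53-deleted PBs, where 25% and 27.7% of all genes were. In Rb/p53-mutated PBs 15 hosts were higher and 1 was lower, where 23.8% and 27.5% of all genes were. In the mutated tumors, 6 snoRNA genes were called lower than cerebellum while their host was called higher. These were Snora33 (Rps12 0.66, SE 0.12), Snord15a and Snord15b (Rps3 0.53, SE 0.08), Snord42b (Rpl23a), Snord57 (Nop56) and Snord61 (Rbmx). On the deposited scale, however, Rps12 and Rps3 were at -0.53 and -0.63 in that comparison. Ribosomal protein genes have near-identical processed copies in the genome, so their array levels are uncertain.

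**Figure D4:**
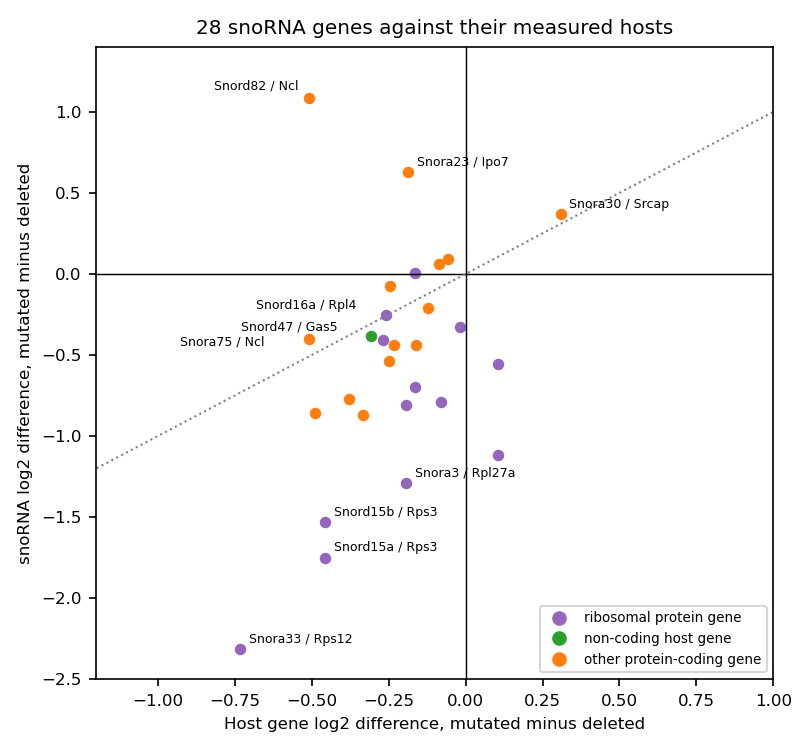
Difference (log2) of the snoRNA gene against that of its host gene, Rb/p53-mutated minus Rb/p53-deleted PBs, with 1 point per measured pair (28 pairs), colours for the kind of host and a dotted line where both differences are equal. In 10 pairs both are lower, and Snora33 (-2.31, with Rps12 at -0.73) and Snord82 (1.09, with Ncl at -0.51) lie at the ends.

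The proteins that bind snoRNAs were examined as a list. The shares of all genes to set beside these lists are 25% higher and 27.7% lower for deleted tumors against cerebellum, and 20.7% higher and 25.9% lower between the tumor types. Of 8 measured core proteins, 4 (50%) were higher in Rb/p53-deleted PBs than in cerebellum and none was lower: fibrillarin (Fbl, the methyltransferase of box C/D particles) by 1.28, Nop56 by 1.04, Nop58 by 1.55, and Nhp2, of box H/ACA particles, by 0.40. The Nhp2 call was lost without PB8 or any 1 cerebellum array (limma adjusted p of 0.0105 to 0.0281). Between the tumor types, 3 (37.5%) were lower in Rb/p53-mutated PBs: Fbl by -0.42 (SE 0.09, adjusted p = 0.00081), Nop58 by -0.47 (SE 0.10, adjusted p = 0.00105) and Nop10 by -0.38 (SE 0.08, adjusted p = 0.0016). The Nop10 call was lost with arrays centred on their medians (-0.25, adjusted p = 0.0883). Of 16 assembly factors, 10 (62.5%) were higher and 1 (6.25%) was lower than cerebellum in the deleted tumors. Between the tumor types 5 (31.2%) were higher and 4 (25%) lower, the lower share being near that of all genes.

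Other lists gave the surroundings of these genes. Of 16 factors of intron release and decay, 12 (75%) were higher and 1 (6.25%) was below cerebellum in Rb/p53-deleted PBs, and 3 (18.8%) were higher and 6 (37.5%) lower in mutated than in deleted tumors. Of 31 genes of RNA polymerase I and ribosomal RNA processing, 12 (38.7%) were higher and 2 (6.45%) lower, and then 5 (16.1%) higher and 13 (41.9%) lower. Of 59 ribosomal protein genes, 48 (81.4%) were higher and none lower than cerebellum in the deleted tumors (median 0.88), and 5 (8.47%) were higher and 30 (50.8%) lower between the tumor types (median -0.23). A list of snoRNA host genes, with 8 measured, had 5 (62.5%) higher and 1 (12.5%) lower than cerebellum in the deleted tumors. Between the tumor types it had 1 (12.5%) higher and 1 (12.5%) lower (median -0.037). MicroRNA genes, another class of short RNAs on the arrays, had 42 of 291 (14.4%) higher and 84 (28.9%) lower than cerebellum in the deleted tumors, and 36 (12.4%) higher and 101 (34.7%) lower between the tumor types, with medians of -0.051 and -0.12. Their lower share against cerebellum was near that of all genes. Whole-array means of microglia and macrophage markers were 8.33 to 8.85 in deleted and 8.85 to 9.37 in mutated tumors; their part in the result was not tested.

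The 2.0 arrays tested loss of Rb in Dicer1/p53-deleted tumors. Dicer1 encodes the enzyme that makes mature microRNAs. No snoRNA gene of 73 was called higher or lower in Rb/Dicer1/p53-deleted PBs, and no gene of all 22180 was (0% in either direction, limma). At an unadjusted p below 0.05 there were 46 snoRNA genes, all of them lower, and 1941 of all genes, of which 829 were lower and 1112 were higher. The fit had 3 arrays a group, and in simulated data of this size it found 33% of genes given a difference of 1 and 90% of those given 2. Those genes were drawn from all genes, so the shares are not those of snoRNA genes, which spread more. Their median SD was 0.52 in Rb/Dicer1/p53-deleted PBs, against 0.20 over all genes, and 0.37 in Dicer1/p53-deleted PBs, against 0.23. The Rb1 message was at 8.30 to 8.79 in the Rb/Dicer1/p53-deleted PBs and at 9.52 to 9.97 in the Dicer1/p53-deleted PBs, a difference of -1.16 (adjusted p = 0.371), and Dicer1 probes, which average over all exons of a gene that both groups had floxed, were at 7.81 to 8.28 and 7.75 to 8.03.

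The values nonetheless lay to 1 side. Of the 73 genes, 70 had a difference below 0. The median was -0.90, against -0.018 over all genes, and was -1.11 for box C/D and -0.49 for box H/ACA genes. In 38 of 73 (52.1%), all 3 Rb/Dicer1/p53-deleted arrays were below all 3 Dicer1/p53-deleted arrays, where 7.42% of all genes were. The reverse held for 1, Snora35, which lies in the serotonin receptor gene Htr2c (0.33, limma adjusted p = 0.597), and for 7.37% of all genes. The 3 genes not below 0 were Snora35, Snora78 (0.07) and Snora19 (0.02). By kind of host, the median was -1.11 for 18 genes in ribosomal protein hosts, -0.97 for 18 in non-coding hosts and -0.72 for 34 in other protein-coding hosts. The level of the host was measured for 60 of the 73 genes, with 46 hosts, whose median difference was -0.11. The snoRNA difference lay below that of its host in 56 of the 60 pairs, which was not tested.

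The lowest adjusted p of a snoRNA gene was that of Snora7a, which differed by -1.09 (SE 0.16, unadjusted p = 0.000143, limma adjusted p = 0.364). Snord15a had the largest difference. It was at 10.07, 9.87 and 10.80 in Dicer1/p53-deleted PBs, at 9.38, 8.34 and 8.13 in Rb/Dicer1/p53-deleted PBs and at 10.57 in the Rb/p53-deleted PB12. The Dicer1 groups did not overlap, and the difference was -1.63 (SE 0.37, unadjusted p = 0.00251, limma adjusted p = 0.439). Snord83b, from Rpl3, was at 8.69, 8.79 and 9.09 against 8.18, 7 and 6.67, a difference of -1.58 (SE 0.37, adjusted p = 0.439). Snord49a was at 11.11, 10.96 and 11.53 against 10.48, 9.57 and 9.12, a difference of -1.48 (SE 0.34, adjusted p = 0.439). In these genes Rb/Dicer1/p53-deleted PB1 was nearest to the other group.

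Among genes named above, Snord47 differed by -1.17 (SE 0.30, limma adjusted p = 0.455), Snord35a by -1.14 (SE 0.37, adjusted p = 0.503) and Snora33 by -0.78 (SE 0.27, adjusted p = 0.503). Snord82, higher in the Rb/p53-mutated than in the Rb/p53-deleted PBs, differed by -0.78 (SE 0.26, adjusted p = 0.503) here. None of these passed the threshold, although the groups did not overlap. For Snora33 these arrays have a further, dimmer cluster. It differed by -0.38, with means of 6.86 and 7.25, where the cluster used had 12.1 and 12.9.

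The 3 Rb/Dicer1/p53-deleted tumors were unlike one another. Relative to the mean of the Dicer1/p53-deleted arrays, the median of the 73 genes was -0.38 in Rb/Dicer1/p53-deleted PB1, -0.96 in PB2 and -1.39 in PB3. PB3 was the lowest of all 7 arrays for 63 of 73 genes (86.3%, against 15.6% of all genes). In PB1, box H/ACA genes were at 0.0014 and box C/D genes at -0.54. Without each array in turn, the median difference between the groups ranged from -1.15 to -0.66. The single Rb/p53-deleted PB12, which gives no test, was at 0.34 and above all 3 Rb/Dicer1/p53-deleted arrays for 64 of 73 genes (87.7%, against 30.6% of all genes).

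**Figure D5:**
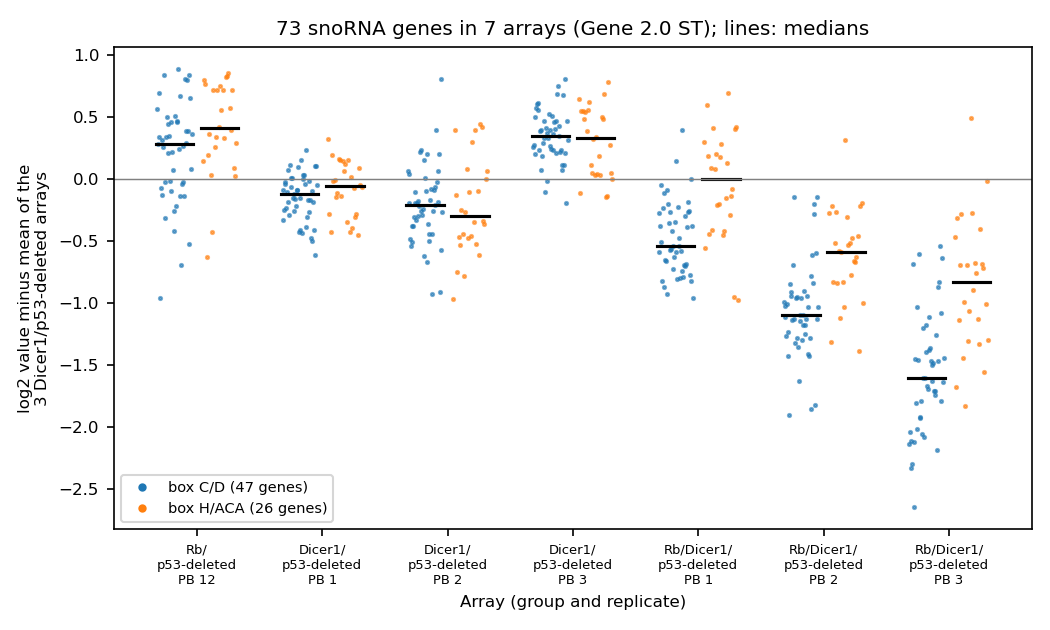
Difference (log2) of each of the 73 snoRNA genes from its mean over the 3 Dicer1/p53-deleted PBs, on each of the 7 arrays of the 2.0 set, for box C/D and box H/ACA genes, with 1 point per gene and a line at the median. The 3 Rb/Dicer1/p53-deleted PBs have medians over all 73 genes of -0.38, -0.96 and -1.39, and PB12 has 0.34.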

How the data were processed

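RNA of snap-frozen tumors and cerebellum, extracted with Trizol, was measured with Affymetrix Mouse Gene arrays, each sample on its own array. The authors deposited log2 values per transcript cluster from RMA in Expression Console (background correction, quantile normalization, summarization). Its version, the build and the arrays normalized together are not given in the sources used here. RMA of separate sets can shift whole arrays, so the 19 arrays of the 1.0 table were quantile-normalized again; the 7 arrays of the 2.0 table were used as deposited. Values of the 2 tables were not compared. Clusters with exactly 1 symbol were kept and, per gene, the cluster of highest mean. Groups were taken from the labels. limma 3.58.1 (lmFit, eBayes) in R 4.3.3, with Benjamini-Hochberg adjustment over all named genes, was fitted to the arrays of the compared groups alone. The number of arrays limits the precision. The calls were tested on simulated data. Genes were named by a rule: the 6 largest differences in each direction among calls without overlap, fixed lists, their hosts, and a few chosen after values were seen. SnoRNA genes and lists were chosen with earlier results of these data known. Hosts are RefSeq genes that span the snoRNA; their strand was not checked. The alternatives were the deposited scale, median centring, leaving out dim genes, 1 fit of all groups, array set and replicate number as blocks, and leaving out each array. The p53 gene was not analysed here.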

Additional observations from a re-analysis of the deposited data

Results flagged for a closer look

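For 6 snoRNA genes, Rb/p53-deleted PBs were called higher and Rb/p53-mutated PBs lower than the same cerebellum arrays, and the direct test between the tumor types was past its threshold. The share of all genes with this pattern was not counted. The differences, mutated minus deleted, were -2.31 for Snora33, -2.22 for Snord35b, -2.16 for Snord87, -1.75 for Snord15a, -1.28 for Snord49b and -1.12 for Snord38a (limma adjusted p of 2.11e-06 or less for each). Against cerebellum, the higher calls of Snord38a and Snord87 in deleted tumors were lost when any 1 cerebellum array was left out, and the lower call of Snord38a in mutated tumors was lost with arrays centred on their medians (-0.087, adjusted p = 0.466). On the deposited scale, the higher calls of Snord49b (0.26, limma adjusted p = 0.0797) and Snord87 (0.39, adjusted p = 0.0227) were lost. With array set as a block, Snora33 was 0.33 above cerebellum and no longer called. As the Rb/p53-mutated arrays also have a distribution of their own, tumor type and set of arrays cannot be told apart.

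Snord55 had 1 value far from the rest of its group: it was at 9.55 in Rb/p53-mutated PB5 and at 9.15, 9.14, 9.09 and 9.13 in the other mutated tumors. It was the only such value of 52 checked in the group of 5, a number of which chance would mark about 1 in 20.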

How the results depend on the processing

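In Rb/p53-deleted PBs against cerebellum, the median snoRNA difference was 0.61 with arrays centred on their medians and 0.65 with dim genes left out. The replicate number as a block gave 25 higher, 1 lower and a median of 0.49. Array set as a block gave 16 higher, 1 lower and 0.67 (all genes 2868 and 3080). In Rb/p53-mutated PBs against cerebellum, the deposited scale gave 2 higher, 40 lower and a median of -1.05 (all genes 999 and 15077), centring gave 14 higher and 0.06 (all genes 7157 higher), leaving out dim genes gave 9 lower, and the replicate block gave 8, 12 and -0.16. Between these tumor types, the deposited scale gave 1 higher and a median of -1.37 (all genes 147 and 18392), and the block gave 2, 31 and -0.52. All genes had 2876 lower with centring, and 2098 higher and 2793 lower without dim genes. In the Dicer1 tumors the block gave 0, 0 and -0.90.

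Single genes that changed sign were Snord82 (-0.048 as deposited) and Snora30 (-0.040 with array set as a block) in deleted tumors against cerebellum. In mutated tumors against cerebellum, these were, as deposited, Ncl (-0.29), Rps12 (-0.53), Rps3 (-0.63), Snora30 (-0.093), Snord47 (-0.82) and Snord95 (-0.24). Between the tumor types they were, as deposited, Snora23 (-0.040), Snora30 (-0.51) and Snord42b (-0.88), and Snord42b also without 1 array (-0.052 to 0.049). The cause was not tested.

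Without each array in turn, deleted tumors against cerebellum had 21 to 31 higher, 2 to 3 lower and a median of 0.48 to 0.53. Mutated tumors against cerebellum had 8 to 9 higher, 11 to 15 lower and -0.23 to -0.15. Mutated against deleted tumors had 2 to 4 higher, 32 to 36 lower and -0.57 to -0.47. The Dicer1 tumors had 0 and 0, and -1.15 to -0.66.

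Same-numbered samples share only a number (correlations of their deviations -0.21 to 0.29), so the block is no pairing. Only 38, 31 and 38 of the 51 genes, in the order above, were above the median gene in a group, so the rest are dim.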
